A study of Mus musculus with 12 samples.

Results

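Heat shock proteins and chaperones bind unfolded or partly folded proteins, and their genes were followed here by RNA-seq in Treg cells of the spleen, regulatory CD4 T cells that hold immune responses in check. The members were the genes whose symbols begin with Hsp, Dnaja, Dnajb, Dnajc or Cct2 to Cct8, together with Tcp1. Of 87 rows of the count table that met this rule, 9 pseudogenes and 4 rows with fewer than 10 reads over the 12 libraries were left out. This left 74 members of 25189 genes. The rows just outside the read minimum were Hspa1l with 8, Cct8l1 with 5, Dnajb8 with 4 and Hspg2 with 2 reads. The members just inside it were Hspa12b with 26, Hspb9 with 44, Dnajb7 with 52 and Hspb1 with 54 reads. Those last 4 members had too few reads to be tested, so 70 members entered the tests, among 13196 genes.

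The libraries came from spleens of 4-week-old females and fell into 3 groups of 4, named here by genotype. Double-deficient cells carried the Foxp3∆EGFPiCre allele, in which a fluorescent reporter and Cre recombinase stand in for working Foxp3 (the Treg lineage transcription factor). They also lacked Rictor (Rictor∆/∆), which mTOR complex 2 needs and mTOR complex 1 does not have. Foxp3-deficient cells carried Foxp3∆EGFPiCre with no Rictor deletion named. WT cells carried Foxp3RFP, a working Foxp3 with a red reporter. Cells were sorted as CD4+RFP+ or CD4+YFP+. The mice named as sources were Foxp3∆EGFPiCre/RFP R26YFP and Foxp3∆EGFPiCre/+ Rictor∆/∆ R26YFP females, so that Cre was driven from the Foxp3 locus and the yellow reporter from R26. No label ties a library to a mouse or states that each came from its own animal, so p-values measure only the spread between these samples, which may be technical. Genotype and reporter colour cannot be told apart where they go together. A Foxp3∆EGFPiCre/RFP female carries both alleles, so a WT and a Foxp3-deficient library may come from 1 animal. Rictor∆/∆ was named only for the other mice, so Rictor loss cannot be told apart from the kind of mouse.

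Chaperones work in relays. J-domain proteins (the Dnaj genes, in classes A, B and C) deliver substrates to HSP70 (most Hspa genes) and stimulate its ATPase. HSP110 proteins exchange its nucleotide, HSP90 matures kinases and receptors, and the ring-shaped chaperonin CCT, built from Tcp1 and the Cct subunits, folds actin and tubulin. The endoplasmic reticulum has its own set, led by Hspa5 (BiP) and Hsp90b1 (GRP94), and the mitochondrion another, led by Hspa9, Hspd1 (HSP60) and Hspe1 (HSP10). Heat shock factor 1 induces Hspa1a, Hspa1b, Dnajb1 and Hsph1 upon heat and other proteotoxic stress, and the unfolded protein response induces Hspa5, Hsp90b1 and Dnajc3.

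The 150 bases before the RefSeq start (build GRCm38.p6) are shown first for the near-identical pair Hspa1a and Hspa1b, whose values differed most between libraries. Each is written 5′ to 3′ on the gene's strand, and capitals mark the 1 heat shock element core, GAANNTTC, found there. Hspa1a is read from chr17:34972157-34972306 (minus strand) and Hspa1b from chr17:34959239-34959388 (minus strand), and the windows differ at 1 of 150 bases.
Hspa1a: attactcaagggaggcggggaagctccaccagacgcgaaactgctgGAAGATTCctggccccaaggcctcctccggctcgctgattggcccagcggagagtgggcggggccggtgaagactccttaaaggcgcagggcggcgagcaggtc
Hspa1b: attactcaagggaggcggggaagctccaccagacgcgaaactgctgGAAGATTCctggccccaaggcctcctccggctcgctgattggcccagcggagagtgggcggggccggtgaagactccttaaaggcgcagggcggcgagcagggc
Hspa5 at chr2:34771940-34772089 (plus strand), Hsp90b1 at chr10:86705445-86705594 (minus strand) and Dnajc3 at chr14:118937782-118937931 (plus strand) are shown for the endoplasmic reticulum members, with the element of the unfolded protein response (ERSE: CCAAT, 9 bases of any kind, CCACG, on either strand) in capitals. GENCODE M21 places an earlier start of Hspa5 and of Hsp90b1 inside these windows.
Hspa5: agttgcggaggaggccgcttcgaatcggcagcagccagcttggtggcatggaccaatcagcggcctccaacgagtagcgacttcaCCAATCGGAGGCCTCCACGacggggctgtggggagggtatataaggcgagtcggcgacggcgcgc
Hsp90b1: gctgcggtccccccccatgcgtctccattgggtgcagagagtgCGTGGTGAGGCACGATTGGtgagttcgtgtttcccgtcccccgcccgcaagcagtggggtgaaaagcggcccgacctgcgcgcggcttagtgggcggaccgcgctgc
Dnajc3: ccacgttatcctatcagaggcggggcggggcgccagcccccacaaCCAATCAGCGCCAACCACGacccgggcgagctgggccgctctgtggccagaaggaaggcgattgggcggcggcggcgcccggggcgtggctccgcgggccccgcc
Cct5 at chr15:31601847-31601996 (minus strand) is shown for the chaperonin, with its 1 core of the other orientation, TTCNNGAA, in capitals.
Cct5: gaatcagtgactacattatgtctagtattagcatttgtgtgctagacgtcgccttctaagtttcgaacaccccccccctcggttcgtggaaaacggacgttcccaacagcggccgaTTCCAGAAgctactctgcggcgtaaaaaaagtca
In windows of 300 bases (250 before the start), searched on both strands, the 62 members with a RefSeq promoter held either core in 11 cases (17.7%), against 15.1% of 27025 promoters. The core lengthened by a further unit of the same kind (3 units in all) stood in 3 of the 62 (4.84%), against 0.529% of all promoters. These were Hsph1, Hspe1 and Dnajb6. Hsp90aa1, Hsp90ab1 and Hspa8 were among the members without a RefSeq promoter here, so they were not searched. The unfolded protein response element stood in 3 of the 62 (4.84%), the 3 genes shown, against 0.130% of all promoters. A match is a description of letters and not a site of binding.

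The libraries held 15769737 to 26114044 reads in genes. Values below are CPM, read counts relative to the TMM-scaled library size. Log2 fold changes are given with their standard error from edgeR's quasi-likelihood fit over the 12 libraries, with a call at an adjusted p under 0.05 (Benjamini-Hochberg, over the 13196 genes). Where 4 values are listed for a group, they are replicates 2, 3, 4 and 5 of the double-deficient group and replicates 1, 3, 4 and 5 of the Foxp3-deficient and WT groups. Foxp3 had 102 ± 13.7 CPM in double-deficient, 118 ± 22.8 CPM in Foxp3-deficient and 633 ± 75.8 CPM in WT libraries (SD, n = 4 each). Rictor had 141 ± 12.6 CPM in double-deficient, 189 ± 31.2 CPM in Foxp3-deficient and 148 ± 14.4 CPM in WT libraries (SD, n = 4 each). This count spans the whole gene, also exons that a deletion may leave, so it does not check the deletion. The T cell markers summed to 4992 to 5611 CPM in double-deficient, 4713 to 6080.3 CPM in Foxp3-deficient and 5005 to 5328 CPM in WT libraries. Single T cell markers differed within these sums. Of 6, 2 were called higher and 3 lower in double-deficient against Foxp3-deficient cells, and 1 higher and 1 lower against WT cells. In Foxp3-deficient against WT cells 2 were higher and 0 lower. The Treg markers summed to 1262 to 1407 CPM in double-deficient, 904 to 1021 CPM in Foxp3-deficient and 2441 to 2720 CPM in WT libraries. Of these 6, with Foxp3 among them, 5 were called lower and 0 higher in Foxp3-deficient against WT cells (83.3%, beside 13.7% of all genes). In double-deficient cells 4 were lower and 0 higher against WT cells (66.7%, beside 32.6%). Against Foxp3-deficient cells 3 were higher and 0 lower (50%, beside 27.2%). The B cell markers, nearly all of it Ighm, summed to 774 to 944 CPM in double-deficient, 676 to 843 CPM in Foxp3-deficient and 1274 to 1503 CPM in WT libraries. The NK and CD8 markers summed to 72.5 to 114 CPM in double-deficient, 37.8 to 146 CPM in Foxp3-deficient and 58.2 to 74.8 CPM in WT libraries, with Foxp3-deficient 5 highest. Of 6 tested, 1 (Cd8b1) was called higher in double-deficient cells in both comparisons. Dendritic, myeloid, platelet and erythroid markers summed to at most 9.22, 1.94, 2.09 and 1.53 CPM. In bulk libraries, fewer cells of a type and less RNA per cell cannot be told apart.

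All members together took 14179 to 15587 CPM in double-deficient, 8647 to 12534 CPM in Foxp3-deficient and 8241 to 12198 CPM in WT libraries. HSP70 genes made up most of the difference between the group means, with 4470.0 to 5679.7 CPM in double-deficient, 1753 to 3824 CPM in Foxp3-deficient and 1479 to 2564 CPM in WT libraries. J-domain B genes summed to 1272 to 1523 CPM in double-deficient, 531 to 1183 CPM in Foxp3-deficient and 489.9 to 913 CPM in WT libraries. CCT genes summed to 2872 to 3028 CPM in double-deficient, 2189.6 to 2613 CPM in Foxp3-deficient and 2184 to 2901 CPM in WT libraries, and HSP90 genes to 2271 to 2523 CPM in double-deficient, 1319.8 to 2138 CPM in Foxp3-deficient and 1203 to 2489 CPM in WT libraries. J-domain C genes, the largest class with 25 members, summed to 1839 to 1972 CPM in double-deficient, 1825 to 1889.9 CPM in Foxp3-deficient and 1806 to 1880.2 CPM in WT libraries. Per kilobase of exon and averaged over the 12 libraries, the highest levels were those of Hsp90ab1 with 500.1, Hspa5 with 398, Hspa1b with 253, Dnajb1 with 186 and Cct5 with 169 CPM per kilobase.

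Double-deficient cells were set against Foxp3-deficient cells to see what Rictor loss adds to Foxp3 loss. Of 70 members, 11 were called higher and 1 lower, where 13.9% and 13.3% of all 13196 genes were called higher and lower. The members called were 17.1% of those tested, below the 27.2% of all genes called, and their median log2 fold change was 0.14, beside -0.02 over all genes. The 11 were 4 chaperonin subunits (Cct5, Cct6a, Cct7, Cct8), 6 J-domain members (Dnajc15, Dnajc2, Dnajc24, Dnajc8, Dnajc19, Dnaja2) and the HSP70 nucleotide exchange factor Hspbp1. Dnajc13 was lower. Libraries of the groups did not overlap for 20 members that were higher and 2 that were lower, beside 13.7% and 11.3% of all genes (25% together). At an unadjusted p under 0.05 there were 22 members, beside 40.4% of all genes. The count of higher members was 6 without double-deficient 3, 5 without double-deficient 5 and 6 without Foxp3-deficient 1.

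Double-deficient cells were also set against WT cells, the comparison that takes in loss of both genes. There 13 members were called higher and 3 lower, beside 15.8% and 16.8% of all genes, and the members called were 22.9% of those tested, below the 32.6% of all genes called. The member median was 0.10 and that of all genes -0.03. The higher members were Cct5, Cct6a, Dnajc15, Dnajc21, Dnajc19, Dnajc2, Dnaja2, Dnajb1, Dnajb4, Hspa5, Hspa2, Hspa1a and Hspbp1. Dnajc1, Dnajb14 and Dnajc13 were lower. The groups did not overlap for 18 members that were higher and 3 that were lower, beside 20.5% and 19.2% of all genes (39.7% together). At an unadjusted p under 0.05 there were 23 members, beside 44% of all genes. The count of higher members was 5 without double-deficient 5, 7 without WT 1, 8 without WT 3 and 5 without WT 4. Both of these comparisons use the same double-deficient libraries, so their values stand side by side below and are not independent.

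Foxp3-deficient cells against WT cells, the comparison for loss of Foxp3, gave no called member (0 of 70), where 13.7% of all genes were called (6.99% higher, 6.74% lower). At an unadjusted p under 0.05 there were 7 members, beside 25.7% of all genes, DESeq2 called 3 lower (Dnajb14, Dnajc1, Hspbap1) and limma-voom called 0. The member median was -0.03 and that of all genes 0.00. The groups did not overlap for 0 members that were higher and 2 that were lower (Dnajb14 and Hspa9), beside 8.52% and 9.26% of all genes (17.8% together). Without Foxp3-deficient 4, Dnajb14 and Dnajc28 were called lower, and 1 member was without WT 1 (Dnajc1) or without Foxp3-deficient 3 (Dnajc4).

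**Figure D1:**
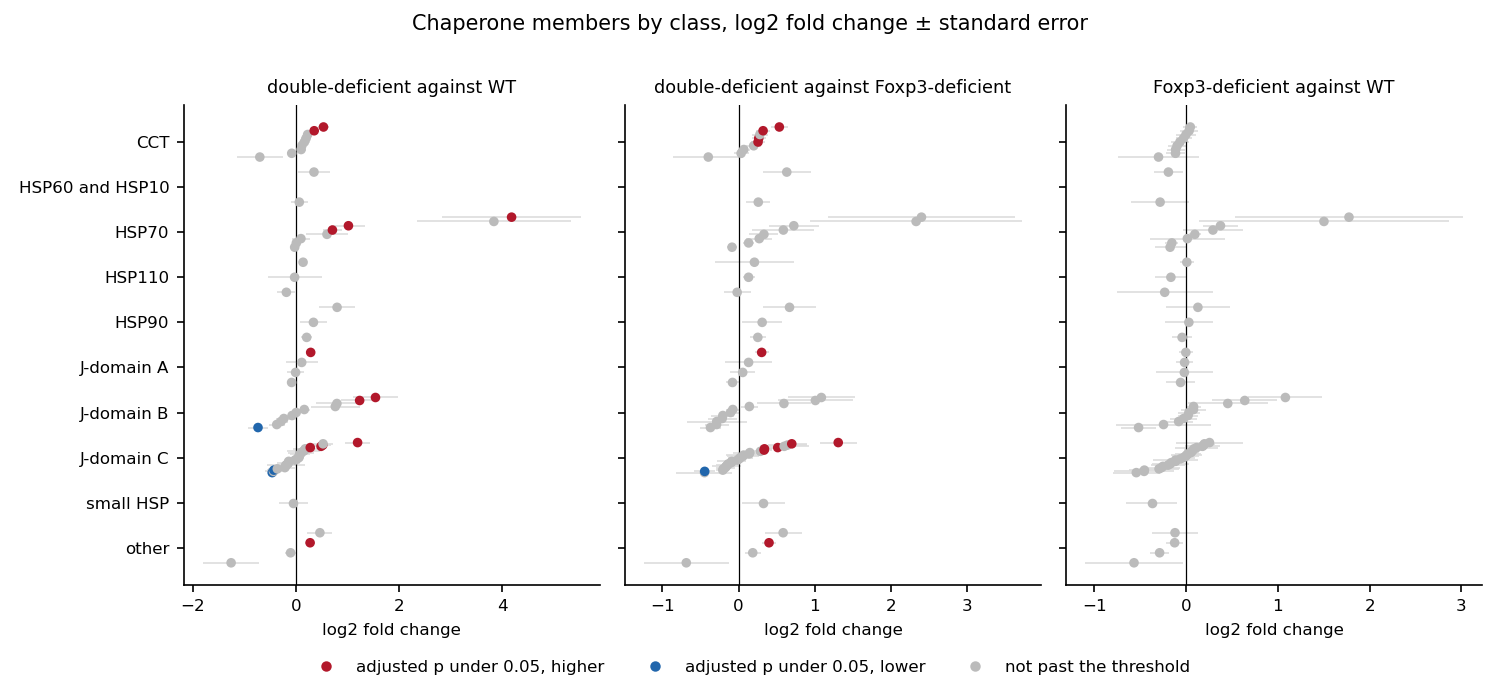
Log2 fold change (x axis) of each tested member (points, in rows by chaperone class) in each of the 3 comparisons, with bars for the standard error, called members in red (higher) and blue (lower) and the others in grey; the x axes differ in range. Called members lie in the 2 comparisons that use double-deficient libraries, and Hspa1a and Hspa1b lie farthest to the right, at 4.18 and 3.84 in double-deficient against WT cells.

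The inducible cytosolic HSP70 genes Hspa1a and Hspa1b had the highest values in double-deficient libraries. Hspa1b (chromosome 17, 34956436 to 34959238, GRCm38) had 1578, 1630.4, 1435 and 2062 CPM in double-deficient libraries. Hspa1b had 2.76, 601, 514 and 214 CPM in Foxp3-deficient libraries and 1.87, 296, 23.4 and 149 CPM in WT libraries. Hspa1a, its neighbour (chromosome 17, 34969190 to 34972156), had 358, 360.2, 322 and 479 CPM in double-deficient libraries. Hspa1a had 0.650, 116, 125 and 46.0 CPM in Foxp3-deficient libraries and 0.227, 55.9, 3.75 and 25.4 CPM in WT libraries. Every double-deficient library lay above every library of the other groups for both genes, and in each of the other groups 1 library was near 0. Foxp3-deficient 1 held 51 reads of Hspa1b and 12 of Hspa1a, and WT 1 held 33 and 4.

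For Hspa1a the log2 fold change was 4.18 ± 1.34 against WT cells (adjusted p = 0.0399). It was 2.40 ± 1.23 against Foxp3-deficient cells (adjusted p = 0.176), and 1.78 ± 1.24 in Foxp3-deficient against WT cells (adjusted p = 0.438). For Hspa1b the same comparisons gave 3.84 ± 1.49 (adjusted p = 0.0766), 2.33 ± 1.39 (adjusted p = 0.241) and 1.50 ± 1.36 (adjusted p = 0.565). Only the first of these 6 differences passed the test. It was lost in 9 of the 12 fits that left out 1 library (without any of the 4 double-deficient libraries, Foxp3-deficient 4 or 5, or WT 1, 4 or 5), with adjusted p between 0.0511 and 0.0975. Hspa1b was called in double-deficient against WT cells without Foxp3-deficient 1 (adjusted p = 0.0294), by DESeq2 (0.00943) and by limma-voom (0.0109). Limma-voom also called Hspa1a (3.85, adjusted p = 0.0167) and Hspa1b (3.83, adjusted p = 0.0348) in double-deficient against Foxp3-deficient cells. The genes are near-identical copies whose reads can align to either. Reads with no unique alignment were tallied apart from the genes, so both levels may be too low and their ratio is uncertain. Hspa1b reads were 4.10 to 8.25 times those of Hspa1a. Reads with no unique alignment were 32.1% ± 0.854 of the reads in double-deficient, 26.9% ± 2.80 in Foxp3-deficient and 27.0% ± 1.26 in WT libraries (SD, n = 4 each). Reads outside annotated features ranged from 4.63% to 5.47% in double-deficient, 6.22% to 9.27% in Foxp3-deficient and 7.52% to 8.75% in WT libraries. The double-deficient libraries did not overlap the others. The part of both shares in the results was not tested.

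The J-domain partner of inducible HSP70, Dnajb1, followed the same order. It had 1044, 898, 914 and 1087 CPM in double-deficient libraries. Dnajb1 had 190.3, 691, 529 and 446 CPM in Foxp3-deficient libraries and 169, 535, 193 and 457 CPM in WT libraries. The double-deficient libraries did not overlap the others. Dnajb1 rose against WT cells (log2 fold change 1.54 ± 0.44, 2.91-fold, adjusted p = 0.0233), and its log2 fold change against Foxp3-deficient cells was 1.09 ± 0.44 (adjusted p = 0.0896). Without double-deficient 5 or WT 4 the adjusted p against WT cells was between 0.0510 and 0.0633, and DESeq2 and limma-voom called Dnajb1 against Foxp3-deficient cells too (0.0342 and 0.0209). Dnajb4, a class B J-domain protein also induced by heat, had 68.4, 56.2, 61.1 and 81.5 CPM in double-deficient libraries. Dnajb4 had 21.1, 73.9, 43.4 and 38.7 CPM in Foxp3-deficient libraries and 17.9, 39.3, 18.5 and 37.9 CPM in WT libraries. It rose in double-deficient against WT cells (1.24 ± 0.36, adjusted p = 0.0205), a call lost without double-deficient 5, WT 1 or WT 4 (adjusted p between 0.0544 and 0.0597). Double-deficient values of Dnajb4 lay above all WT values but overlapped those of Foxp3-deficient libraries, where Foxp3-deficient 3 was highest.

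The testis-enriched HSP70 gene Hspa2 had 12.5, 10.5, 10.02 and 17.7 CPM in double-deficient libraries. Hspa2 had 4.11, 14.2, 5.53 and 6.89 CPM in Foxp3-deficient libraries and 3.80, 6.96, 6.90 and 7.24 CPM in WT libraries. It rose in double-deficient against WT cells (1.02 ± 0.33, adjusted p = 0.0271), without overlap, and the call was lost without double-deficient 5 or WT 1, 3 or 4 (adjusted p between 0.0505 and 0.0931). The constitutive cytosolic HSP70 gene Hspa8 had 427, 401, 391 and 394 CPM in double-deficient libraries. Hspa8 had 148, 295, 306 and 324 CPM in Foxp3-deficient libraries and 116, 397, 141 and 408 CPM in WT libraries. WT 1, WT 4 and Foxp3-deficient 1 were low and the other libraries lay between 295 and 427 CPM. Neither double-deficient against WT (0.60 ± 0.41, adjusted p = 0.283) nor against Foxp3-deficient cells (0.59 ± 0.41, adjusted p = 0.310) passed the test. Hspa14, a ribosome-associated HSP70, varied little, with 119 to 121 CPM in double-deficient, 125 to 133 CPM in Foxp3-deficient and 113 to 129 CPM in WT libraries. The 95% interval of its log2 fold change was -0.13 to 0.15 in double-deficient against WT cells.

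Among the HSP90 genes, the inducible Hsp90aa1 had 178, 180.1, 163 and 210.4 CPM in double-deficient libraries. Hsp90aa1 had 54.3, 138, 147 and 120.2 CPM in Foxp3-deficient libraries and 57.4, 135, 73.5 and 155 CPM in WT libraries. Its double-deficient values lay above all others. The log2 fold change was 0.80 ± 0.35 against WT cells (adjusted p = 0.0990) and 0.67 ± 0.35 against Foxp3-deficient cells (adjusted p = 0.172). The first was called without Foxp3-deficient 1 or WT 5 (adjusted p 0.0386 and 0.0490) and by limma-voom (0.0284). The constitutive Hsp90ab1 had 1909.9, 1641, 1734 and 1646 CPM in double-deficient libraries. Hsp90ab1 had 927, 1602, 1607 and 1457 CPM in Foxp3-deficient libraries and 831, 1807, 929 and 1906 CPM in WT libraries. Foxp3-deficient 1, WT 1 and WT 4 were lowest. Neither comparison of double-deficient cells passed the test (0.34 ± 0.26 against WT, adjusted p = 0.338, and 0.31 ± 0.26 against Foxp3-deficient, adjusted p = 0.401).

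The heat-inducible genes Hsph1 and Dnaja1 had their highest libraries in the WT group. The HSP110 gene Hsph1 had 209, 161, 152 and 147 CPM in double-deficient libraries. Hsph1 had 86.8, 143, 165 and 184 CPM in Foxp3-deficient libraries and 51.2, 237, 69.0 and 323 CPM in WT libraries. WT 5 and WT 3 were the highest of the 12 libraries and WT 1 and WT 4 the lowest. The log2 fold change was -0.02 ± 0.52 in double-deficient against WT cells (adjusted p = 0.977) and -0.23 ± 0.52 in Foxp3-deficient against WT cells (adjusted p = 0.839). Dnaja1, a farnesylated class A partner of HSP70, had 157, 134, 137 and 146 CPM in double-deficient libraries. Dnaja1 had 84.1, 169, 126 and 145 CPM in Foxp3-deficient libraries and 73.3, 180.2, 83.0 and 194 CPM in WT libraries. Again WT 5 and WT 3 were highest and WT 1 lowest (0.11 ± 0.31 in double-deficient against WT cells, adjusted p = 0.803). Hspa4, also HSP110, had 293 to 328 CPM in double-deficient, 274 to 298 CPM in Foxp3-deficient and 249 to 319 CPM in WT libraries. Hspa4l, also HSP110, had 40.8 to 51.5 CPM in double-deficient, 40.3 to 53.5 CPM in Foxp3-deficient and 37.6 to 73.9 CPM in WT libraries. The main edgeR fit called neither. With trends over gene length and GC content removed, Hspa4 was called in double-deficient against WT cells.

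**Figure D2:**
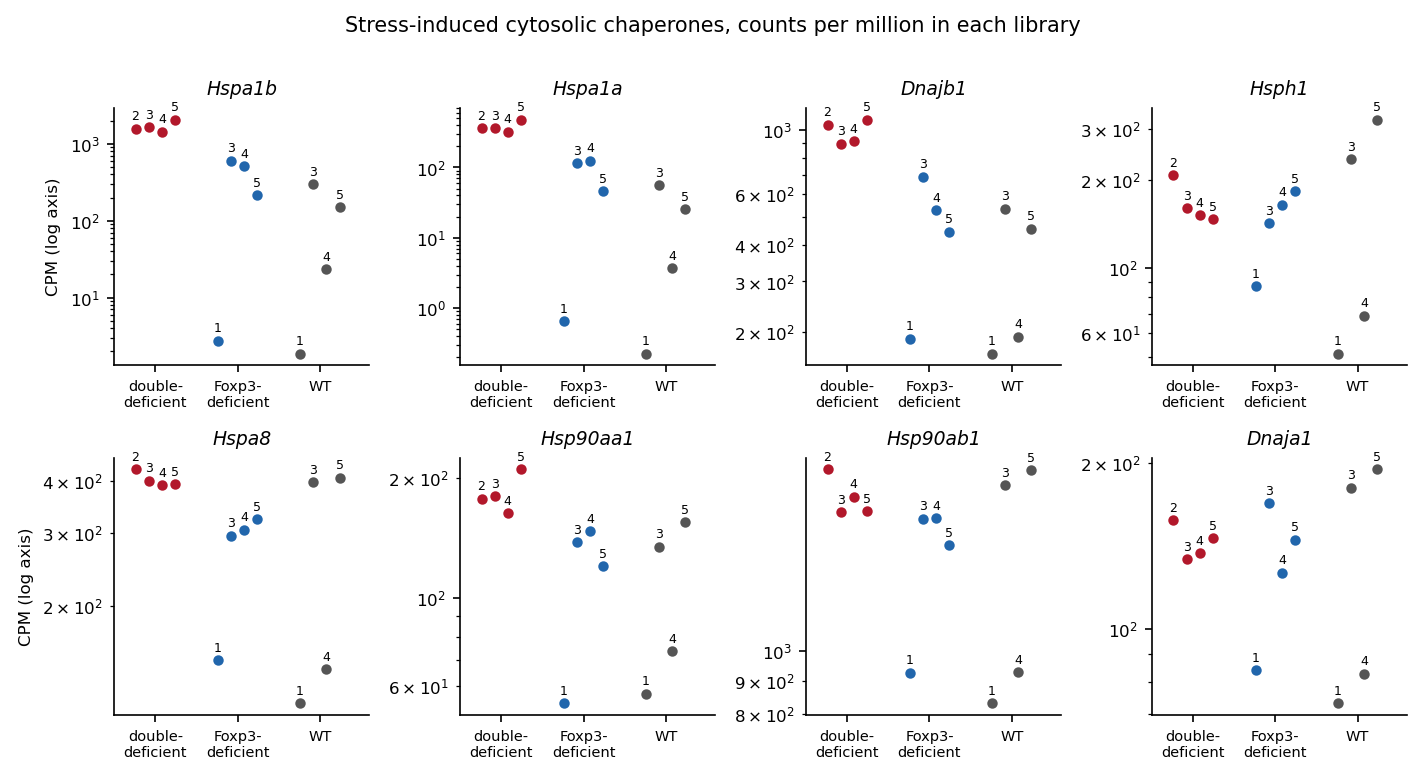
CPM on a log axis of Hspa1b, Hspa1a, Dnajb1, Hspa8, Hsp90aa1, Hsp90ab1, Hsph1 and Dnaja1 in each library (points with replicate numbers), grouped as double-deficient, Foxp3-deficient and WT. Double-deficient points stay close together in each panel, while Foxp3-deficient 1, WT 1 and WT 4 sit low in most of them.

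Spread within a group set Hspa1a and Hspa1b apart from the rest of the table. On the log2(CPM + 0.5) scale Hspa1b had the highest and Hspa1a the second highest SD of all 13196 genes, both in Foxp3-deficient libraries (3.54 and 3.20) and in WT libraries (3.12 and 2.81). Hsph1 ranked 4 in WT libraries (1.30), Hspa8 17 (0.96), Dnajb1 35 (0.84) and Dnaja1 59 (0.73). In Foxp3-deficient libraries these 4 ranked lower, Hsph1 at 2177 (0.48), Hspa8 at 1622 (0.53), Dnajb1 at 338 (0.80) and Dnaja1 at 2776 (0.43). In double-deficient libraries the SD of Hspa1b was 0.22. The median SD over the 70 members was 0.11 in double-deficient, 0.19 in Foxp3-deficient and 0.19 in WT libraries, beside 0.17, 0.25 and 0.15 over all genes. A lower SD in double-deficient than in WT libraries was found for 45 of 70 members (64.3%), beside 43.5% of all genes, and a lower one than in Foxp3-deficient libraries for 52 (74.3%), beside 71.7%. WT 1 was the lowest WT library for 39 of 70 members (55.7%, beside 26.9% of all genes) and Foxp3-deficient 1 the lowest of its group for 38 (54.3%, beside 32.5%).

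**Figure D3:**
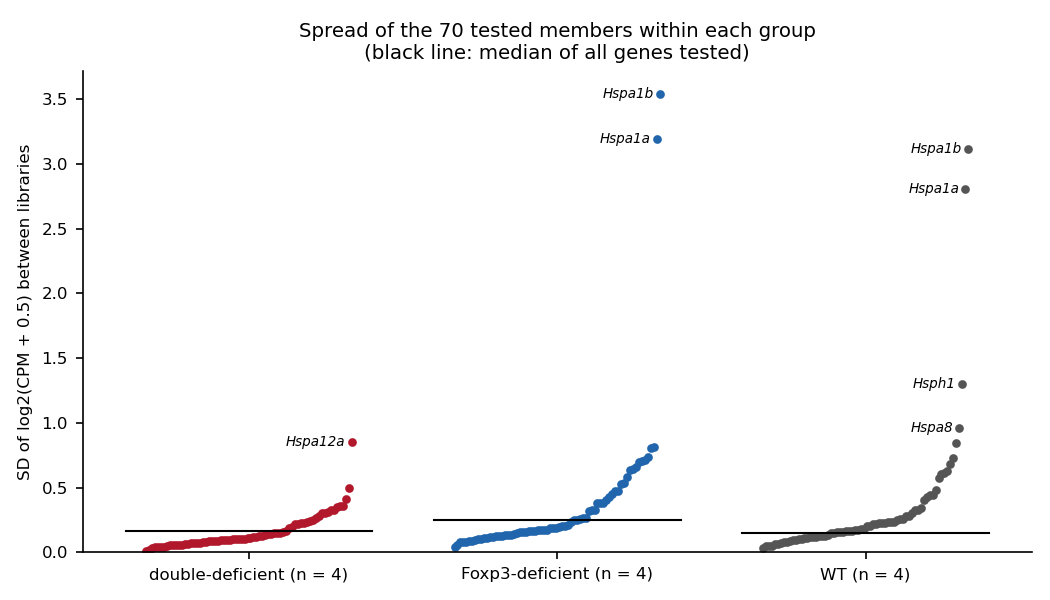
Within-group SD of log2(CPM + 0.5) for the tested members (points), by group, sorted from low to high, with the median of all tested genes as a black line. Hspa1b and Hspa1a stand above every other member in the Foxp3-deficient and WT groups, at 3.54 and 3.20 and at 3.12 and 2.81.

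Immediate early genes, which cell handling as well as T cell activation induces, were also high in double-deficient libraries. The 16 listed genes summed to 26355, 22074, 25314 and 26585 CPM in double-deficient, 10074, 33331, 13456 and 15265 CPM in Foxp3-deficient and 6919.8, 13462, 8999 and 11210.0 CPM in WT libraries. WT 1 and Foxp3-deficient 1 were the lowest of their groups, as they were for Hspa1a, and Foxp3-deficient 3 was the highest of all. In double-deficient against WT cells 14 of 16 were called higher and 0 lower, among them Ier2 (1.64 ± 0.26), Ier3 (2.90 ± 0.46), Zfp36 (1.34 ± 0.22) and Klf2 (0.89 ± 0.14). Fos, Fosb, Jun, Junb, Jund, Egr1, Dusp1 and Klf6 lost that call in at least 1 fit without a single library (adjusted p up to 0.121). Against Foxp3-deficient cells 3 were called higher (Ier2, Ier3, Zfp36), and in Foxp3-deficient against WT cells 1 was (Klf2). The called share of the 16 was 87.5% in double-deficient against WT cells and 18.8% against Foxp3-deficient cells, beside 32.6% and 27.2% of all genes. In Foxp3-deficient against WT cells it was 6.25%, beside 13.7%. The part of immediate early genes in the chaperone values was not tested. Of a list of heat shock factors, Hsf1, Hsf2, Hsf4 and the factor-binding protein Hsbp1 were tested. The main edgeR fit called 0 of these 4 in each comparison, as did DESeq2 and limma-voom. The called shares of all genes in double-deficient cells were 32.6% against WT and 27.2% against Foxp3-deficient cells. In Foxp3-deficient against WT cells the share was 13.7%. At an unadjusted p under 0.05 there was 1 of the 4 in double-deficient against Foxp3-deficient cells and 0 in the others. Hsf1 had 104 to 125 CPM in double-deficient, 112 to 139.6 CPM in Foxp3-deficient and 111 to 127 CPM in WT libraries.

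Among the chaperonin subunits, Cct5 and Cct6a were called higher in both comparisons of double-deficient cells, and Cct7 and Cct8 in the one against Foxp3-deficient cells. Cct5 (chromosome 15, 31590800 to 31601804) had 566, 614, 548 and 625 CPM in double-deficient libraries. Cct5 had 344, 416, 417 and 446 CPM in Foxp3-deficient libraries and 354, 424, 353 and 491 CPM in WT libraries. All 4 double-deficient values exceeded all 8 others, and Cct5 rose both against Foxp3-deficient cells (log2 fold change 0.54 ± 0.11, 1.45-fold, adjusted p = 0.00319) and against WT cells (0.54 ± 0.11, 1.45-fold, adjusted p = 0.00180). Both calls held in every alternative tried, leaving out single libraries included. In Foxp3-deficient against WT cells its log2 fold change was 0.00 ± 0.11 (95% interval -0.23 to 0.23).

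Cct6a had 386, 405, 383 and 377 CPM in double-deficient libraries. Cct6a had 293, 279, 332 and 337 CPM in Foxp3-deficient libraries and 259.7, 337, 272 and 343 CPM in WT libraries. It rose without overlap against Foxp3-deficient (0.32 ± 0.10, adjusted p = 0.0238) and WT cells (0.36 ± 0.10, adjusted p = 0.0114). The first call was lost without double-deficient 3 or Foxp3-deficient 1 (adjusted p 0.0551 and 0.0559). That call was also lost with trends over gene length and GC content removed and with a replicate block. Cct7 had 400.0, 436, 409 and 403 CPM in double-deficient libraries. Cct7 had 310.0, 344, 363 and 364 CPM in Foxp3-deficient libraries and 311, 369, 322 and 403 CPM in WT libraries. Cct8 had 494, 500.0, 487 and 454 CPM in double-deficient libraries. Cct8 had 358, 384, 424 and 444 CPM in Foxp3-deficient libraries and 371, 445, 383 and 487 CPM in WT libraries. Both subunits rose against Foxp3-deficient cells (0.26 ± 0.09, adjusted p = 0.0416, and 0.26 ± 0.09, adjusted p = 0.0478), close to the threshold. The call of Cct7 was lost without any double-deficient library, Foxp3-deficient 1, 3 or 4, or WT 3 (adjusted p 0.0513 to 0.105), and that of Cct8 without any of these or WT 4 (0.0549 to 0.123). With trends over gene length and GC content removed, Cct8 had a log2 fold change of 0.08 (adjusted p = 0.513). Against WT cells Cct7 had 0.23 ± 0.09 (adjusted p = 0.0561; called by DESeq2 and limma-voom) and Cct8 0.20 ± 0.09 (adjusted p = 0.115), with WT 5 near the double-deficient values.

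The remaining subunits were not called. In double-deficient against Foxp3-deficient cells the log2 fold change was 0.28 ± 0.11 for Cct4 (adjusted p = 0.0604), 0.20 ± 0.10 for Tcp1, 0.07 ± 0.08 for Cct2 and 0.03 ± 0.10 for Cct3. Cct4 passed the test without WT 1 or WT 5 (adjusted p 0.0467 and 0.0314). Cct3 ranged over 293 to 346 CPM in double-deficient, 283 to 348 CPM in Foxp3-deficient and 297 to 389.6 CPM in WT libraries, with WT 5 highest. The ratio of the highest to the lowest of the 8 ubiquitous subunits was 2.64 to 3.13 in double-deficient, 2.05 to 2.22 in Foxp3-deficient and 2.08 to 2.47 in WT libraries. Cct6b, the testis form, stayed at 0.248 to 0.360 CPM in double-deficient, 0.325 to 0.614 CPM in Foxp3-deficient and 0.246 to 0.795 CPM in WT libraries. Of 9 CCT members, 4 (44.4%) were called against Foxp3-deficient cells, beside 27.2% of all genes. Against WT cells 2 (22.2%) were, beside 32.6%, and 0 between Foxp3-deficient and WT cells, beside 13.7%.

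**Figure D4:**
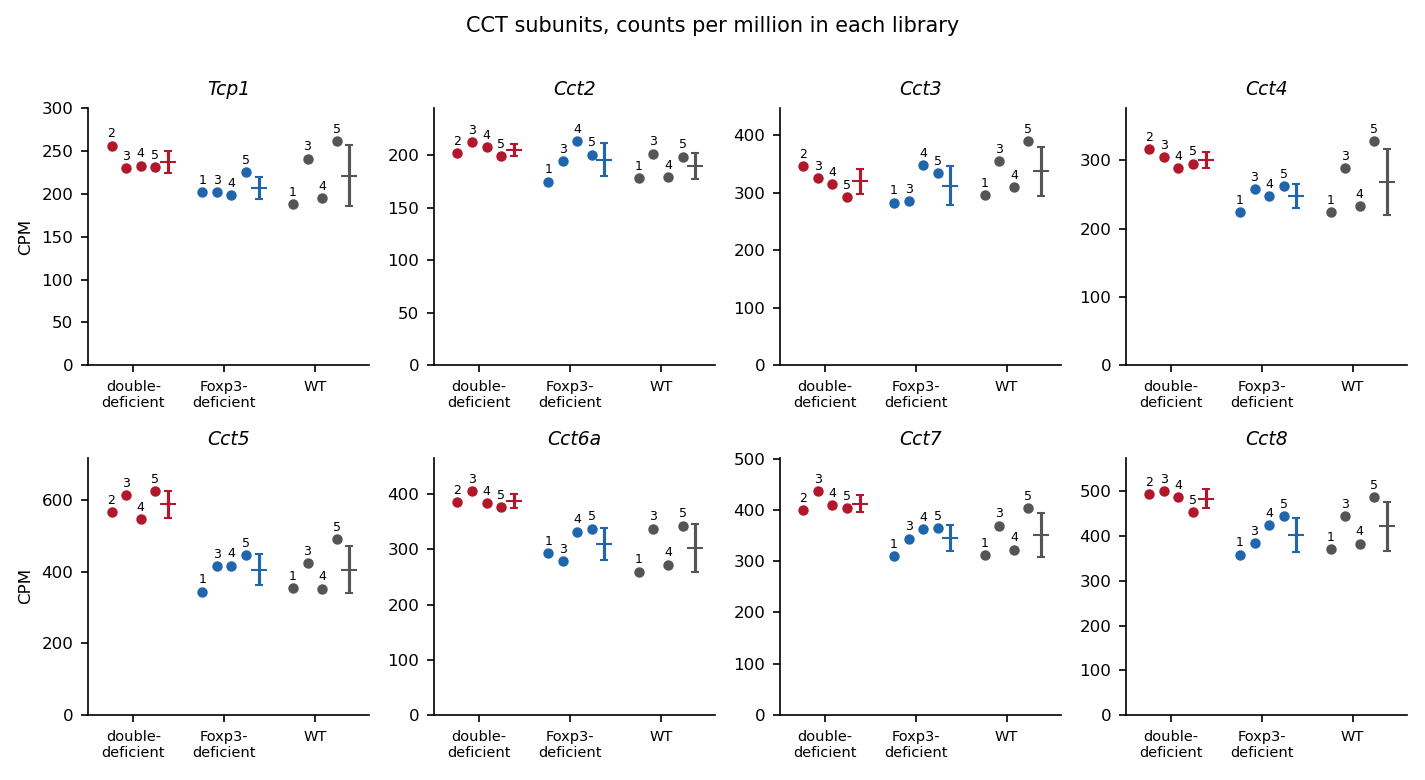
CPM of the 8 ubiquitous CCT subunits in each library (points with replicate numbers), by group, with bars for the mean ± SD of 4 libraries. For Cct5 the double-deficient libraries, at 548 to 625 CPM, lie above every Foxp3-deficient and WT library, while Cct2 and Cct3 overlap between all groups and Tcp1 between double-deficient and WT libraries.

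Prefoldin, which hands unfolded actin and tubulin to CCT, and related partners also had genes called higher in double-deficient cells. Of 10 listed genes, 5 were called higher in double-deficient against Foxp3-deficient cells (Pfdn1 0.89 ± 0.17, Pfdn4 0.85 ± 0.24, Pfdn5 0.79 ± 0.22, Vbp1 0.59 ± 0.14 and the phosducin-like Pdcl3 0.51 ± 0.14) and 0 lower. The list median was 0.55. Against WT cells 4 were (Pfdn1 0.58 ± 0.17, Vbp1 0.71 ± 0.14, Pdcl 0.38 ± 0.08, Pdcl3 0.66 ± 0.14), with a median of 0.46, and 0 were lower. In Foxp3-deficient against WT cells 1 was called higher, Pdcl at 0.27 ± 0.08, a call lost without Foxp3-deficient 5 or WT 1, 3 or 5 (adjusted p 0.0596 to 0.0945). Called genes were 50%, 40% and 10% of the list in these comparisons, in this order, beside 27.2%, 32.6% and 13.7% of all genes. Single libraries decided Pdcl3 and Pfdn4 against Foxp3-deficient cells (without double-deficient 5, adjusted p 0.0545 and 0.0519) and Pfdn1 against WT cells (without WT 4, 0.0501). Short genes were higher in double-deficient libraries across the table. The median log2 fold change against Foxp3-deficient cells was 0.25 in the shortest of 5 length classes (up to 2147 bases of exon) and -0.22 in the longest. With length and GC trends removed, 6 members were called higher against Foxp3-deficient cells (Cct5, Cct7, Dnajc15, Dnajc2, Dnajc24, Hspbp1) and 0 lower. Counts for the prefoldin list with these trends removed are not given here.

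Cochaperones of HSP70 and HSP90 moved in both directions. Hspbp1, a nucleotide exchange factor of HSP70, had 102, 102, 96.1 and 102 CPM in double-deficient libraries. Hspbp1 had 63.8, 87.4, 74.9 and 77.8 CPM in Foxp3-deficient libraries and 80.1, 83.8, 76.7 and 90.3 CPM in WT libraries. It rose without overlap against Foxp3-deficient (0.40 ± 0.09, adjusted p = 0.00695) and WT cells (0.28 ± 0.09, adjusted p = 0.0323). The second call was lost without double-deficient 2, 3 or 5 or WT 1, 3 or 4 (adjusted p 0.0605 to 0.103). That call was also lost with length and GC trends removed and with a replicate block. Of 29 listed cochaperones outside the members, 3 were called higher and 2 lower against Foxp3-deficient cells, 6 higher and 1 lower against WT cells, and 2 higher and 0 lower in Foxp3-deficient against WT cells. These calls were 17.2%, 24.1% and 6.9% of the list, below the 27.2%, 32.6% and 13.7% of all genes called there. Those higher in double-deficient against WT cells were Cdc37 (0.30 ± 0.08), which loads kinases on HSP90, the exchange factors Bag1 (0.47 ± 0.12), Bag3 (0.84 ± 0.20) and Bag5 (0.34 ± 0.08), and the HSP90 partners Sugt1 (0.83 ± 0.17) and Nudcd2 (0.75 ± 0.13). Tomm34, a carrier of mitochondrial precursors, fell by 0.31 on the log2 scale there. Unc45a, the myosin chaperone, rose in Foxp3-deficient against WT cells (0.44 ± 0.08, adjusted p = 0.000933) and fell in double-deficient against Foxp3-deficient cells (-0.47 ± 0.08, adjusted p = 0.000968). Bag3 was also called in Foxp3-deficient against WT cells (0.65 ± 0.20, adjusted p = 0.0423), a call lost in 11 of 12 fits without 1 library (adjusted p 0.0501 to 0.136). Cdc37 was not called against WT cells without WT 4 (0.0535).

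Hspa5, the HSP70 of the endoplasmic reticulum, had 2129.7, 1974, 1944 and 2345 CPM in double-deficient libraries. Hspa5 had 1223, 2456, 1332 and 1653 CPM in Foxp3-deficient libraries and 989, 1425, 1183 and 1537 CPM in WT libraries. All double-deficient values lay above all WT values, and Hspa5 rose in that comparison (0.71 ± 0.19, 1.63-fold, adjusted p = 0.0126), in every fit without 1 library, though not with all 25189 genes tested (0.0653). Against Foxp3-deficient cells it had 0.33 ± 0.19 (adjusted p = 0.209). Foxp3-deficient 3 was the highest of the 12 libraries, and without that library Hspa5 was called (adjusted p = 0.00678). The J-domain gene Dnajb9 (ERdj4), which keeps the stress sensor IRE1 off, showed the same single high library. It had 54.7, 40.5, 61.8 and 69.0 CPM in double-deficient libraries. Dnajb9 had 41.6, 133, 38.2 and 63.7 CPM in Foxp3-deficient libraries and 17.8, 42.9, 28.6 and 40.9 CPM in WT libraries. Its log2 fold change was 1.08 ± 0.40 in Foxp3-deficient against WT cells (adjusted p = 0.110) and 0.80 ± 0.40 in double-deficient against WT cells (adjusted p = 0.151; called without Foxp3-deficient 3, 0.0333).

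Hsp90b1, whose promoter holds the same element, had 435, 450.2, 425 and 415 CPM in double-deficient libraries. Hsp90b1 had 339, 319, 383 and 408 CPM in Foxp3-deficient libraries and 314, 419, 329.7 and 428 CPM in WT libraries. The double-deficient values lay above all Foxp3-deficient values (0.25 ± 0.11, adjusted p = 0.0867; called without Foxp3-deficient 5, 0.0405) and overlapped WT values (0.21 ± 0.11, adjusted p = 0.138). Dnajc3 (p58IPK), a BiP cochaperone, had 275, 281, 245 and 253 CPM in double-deficient libraries. Dnajc3 had 283, 264, 284 and 324 CPM in Foxp3-deficient libraries and 234, 249, 247 and 281 CPM in WT libraries. Its log2 fold changes were -0.13 ± 0.08 against Foxp3-deficient and 0.06 ± 0.08 against WT cells, neither called. Dnajb11 (ERdj3) ranged over 151 to 174 CPM in double-deficient, 155 to 195 CPM in Foxp3-deficient and 157 to 169 CPM in WT libraries, the reductase Dnajc10 over 99.2 to 125 CPM in double-deficient, 117 to 144 CPM in Foxp3-deficient and 101 to 154 CPM in WT libraries, Hspa13 over 22.5 to 37.3 CPM in double-deficient, 21.6 to 31.9 CPM in Foxp3-deficient and 24.6 to 30.8 CPM in WT libraries and Dnajc25 over 5.45 to 7.11 CPM in double-deficient, 3.74 to 8.78 CPM in Foxp3-deficient and 4.31 to 6.28 CPM in WT libraries, with 0 calls.

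Dnajc1, a membrane J-domain protein of the endoplasmic reticulum, went the other way. It had 67.2, 64.0, 59.7 and 61.0 CPM in double-deficient libraries. Dnajc1 had 65.7, 73.2, 77.7 and 74.1 CPM in Foxp3-deficient libraries and 77.2, 84.9, 95.7 and 87.9 CPM in WT libraries. It fell in double-deficient against WT cells, without overlap (-0.46 ± 0.09, adjusted p = 0.00120), and had -0.21 ± 0.09 against Foxp3-deficient cells (adjusted p = 0.0888) and -0.25 ± 0.09 in Foxp3-deficient against WT cells (adjusted p = 0.0710). With length and GC trends removed the first was -0.16 (adjusted p = 0.190). Of 23 other listed genes of endoplasmic reticulum folding and its stress response, 5 were lower and 1 higher in double-deficient against WT cells. The lower ones were the degradation genes Sel1l (-0.60 ± 0.11), Syvn1 (-0.59 ± 0.11), Edem1 (-0.53 ± 0.09) and Herpud1 (-0.35 ± 0.08) and the disulfide isomerase Pdia3 (-0.30 ± 0.08), and the higher one was the isomerase P4hb (0.21 ± 0.07). Against Foxp3-deficient cells 4 were lower (Sel1l -0.59 ± 0.11, Syvn1 -0.57 ± 0.11, Edem1 -0.41 ± 0.09 and the sensor kinase Eif2ak3 -0.39 ± 0.11) and 0 higher, and in Foxp3-deficient against WT cells 2 were lower (Pdia3 -0.26 ± 0.08, Xbp1 -0.27 ± 0.08). In double-deficient cells the called share of this list was 26.1% against WT and 17.4% against Foxp3-deficient cells, below the 32.6% and 27.2% of all genes. It was 8.7% in Foxp3-deficient against WT cells, below the 13.7% of all genes. P4hb was not called without double-deficient 3 or WT 1, 3 or 4 (adjusted p 0.0566 to 0.0726), nor Eif2ak3 without double-deficient 3 or 5 or Foxp3-deficient 4 (0.0719 to 0.0819). Both calls in Foxp3-deficient against WT cells were lost in several such fits (0.0503 to 0.119 for Pdia3, 0.0650 to 0.0932 for Xbp1).

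Dnajc15, a J-domain protein of the mitochondrial inner membrane, gave the lowest adjusted p of all J-domain members in double-deficient against Foxp3-deficient cells. Dnajc15 (chromosome 14, 77820681 to 77875125) had 53.9, 60.6, 61.4 and 55.1 CPM in double-deficient libraries. Dnajc15 had 10.8, 32.7, 20.2 and 29.5 CPM in Foxp3-deficient libraries and 25.5, 25.0, 20.9 and 29.5 CPM in WT libraries. Double-deficient libraries lay above all others, at 2.48-fold the level of Foxp3-deficient cells (1.31 ± 0.24, adjusted p = 0.00201) and 2.29-fold that of WT cells (1.20 ± 0.24, adjusted p = 0.00188), and both calls held in every alternative tried. Its relative Dnajc19, also of the import motor, had 16.3, 18.4, 16.5 and 23.5 CPM in double-deficient libraries. Dnajc19 had 10.1, 14.7, 14.1 and 13.4 CPM in Foxp3-deficient libraries and 15.9, 11.1, 11.5 and 13.5 CPM in WT libraries. It rose against Foxp3-deficient (0.51 ± 0.17, adjusted p = 0.0338) and WT cells (0.52 ± 0.17, adjusted p = 0.0268). The first call was lost without double-deficient 3 or 5 or Foxp3-deficient 1 or 4 (adjusted p 0.0545 to 0.116), the second without double-deficient 5 or WT 3 or 4 (0.0847 to 0.0991). Both were also lost with length and GC trends removed and with a replicate block.

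The folding chaperones of the mitochondrial matrix were not called in any comparison. Hspa9 (mortalin) had 248, 235, 220.4 and 232 CPM in double-deficient libraries. Hspa9 had 227, 195, 214 and 218 CPM in Foxp3-deficient libraries and 229, 233, 239.8 and 248 CPM in WT libraries. All Foxp3-deficient values lay below all WT values (-0.15 ± 0.07, adjusted p = 0.176). Hspd1 had 96.0, 93.6, 90.4 and 87.9 CPM in double-deficient libraries. Hspd1 had 69.7, 68.0, 83.6 and 86.0 CPM in Foxp3-deficient libraries and 64.9, 105, 66.5 and 115 CPM in WT libraries. Its partner Hspe1 had 20.3, 19.8, 23.4 and 22.9 CPM in double-deficient libraries. Hspe1 had 6.17, 14.1, 20.1 and 15.3 CPM in Foxp3-deficient libraries and 11.4, 25.9, 10.6 and 20.05 CPM in WT libraries. In both genes WT 3 and WT 5 were high and WT 1 and WT 4 low, so the WT range held the double-deficient values of both. Dnaja3, the J-domain partner of Hspa9, ranged over 87.0 to 103 CPM in double-deficient, 95.3 to 111 CPM in Foxp3-deficient and 95.8 to 105 CPM in WT libraries. Among 11 tested genes of mitochondrial proteostasis, 3 were higher against Foxp3-deficient cells (the exchange factor Grpel1 0.48 ± 0.15, and the protease components Clpx 0.38 ± 0.11 and Yme1l1 0.33 ± 0.10), 4 against WT cells (these and Grpel2 0.28 ± 0.10) and 0 between Foxp3-deficient and WT cells (0 by DESeq2 and limma-voom, 0 at an unadjusted p under 0.05), with 0 lower throughout. The calls were 27.3% of the 11 against Foxp3-deficient and 36.4% against WT cells, beside 27.2% and 32.6% of all genes. The 0 between Foxp3-deficient and WT cells stands beside 13.7% of all genes. In fits without 1 library Grpel1 was lost against Foxp3-deficient (without double-deficient 4 or 5 or Foxp3-deficient 4) and WT cells (without double-deficient 5 or WT 1 or 4). Clpx was lost without double-deficient 5 or Foxp3-deficient 4, and Yme1l1 without double-deficient 4 or 5, Foxp3-deficient 1 or 4, or WT 1 or 4. Grpel2 was lost without any double-deficient or WT library. These fits gave these genes an adjusted p of at most 0.0964.

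**Figure D5:**
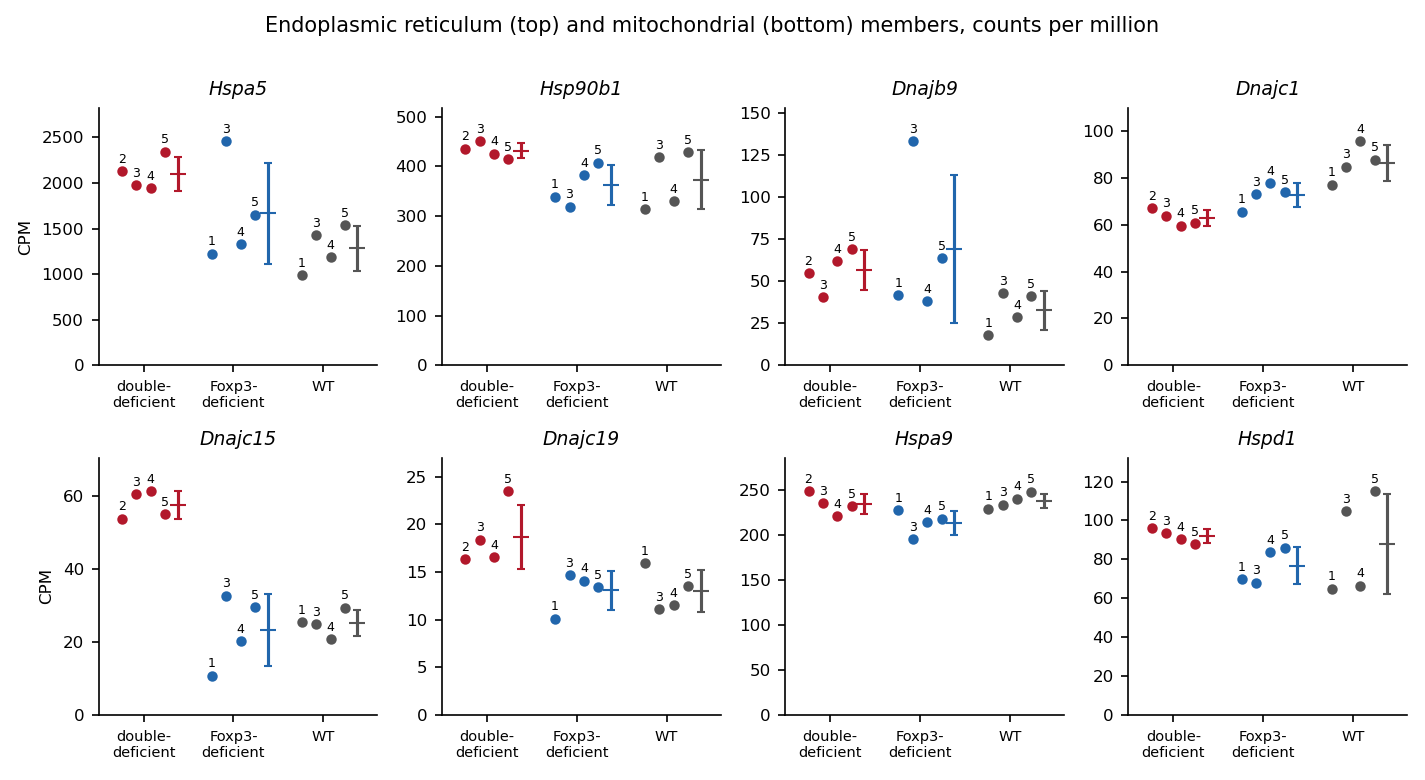
CPM of endoplasmic reticulum and mitochondrial members in each library (points with replicate numbers), by group, with bars for the mean ± SD of 4 libraries. Dnajc15 separates the double-deficient libraries, at 53.9 to 61.4 CPM, from all others, Dnajc1 is lower in them than in WT libraries, and Foxp3-deficient 3 stands highest for Hspa5 and Dnajb9.

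The other J-domain members with calls act in the cytosol, nucleus or endosome or, for Dnajb14, in the endoplasmic reticulum. Dnajc2 (zuotin-related factor 1), which works at the ribosome with Hspa14, had 117, 117, 123 and 119 CPM in double-deficient libraries. Dnajc2 had 77.3, 90.03, 102 and 106 CPM in Foxp3-deficient libraries and 90.3, 97.0, 94.4 and 109.6 CPM in WT libraries. It rose without overlap against Foxp3-deficient (0.34 ± 0.10, adjusted p = 0.0190) and WT cells (0.28 ± 0.10, adjusted p = 0.0372). The WT call was lost without any double-deficient library or without WT 1, 3 or 4 (adjusted p 0.0550 to 0.114). Dnajc21, a factor of large ribosomal subunit maturation (chromosome 15, 10446756 to 10470516), had 71.7, 65.6, 73.3 and 77.3 CPM in double-deficient libraries. Dnajc21 had 51.2, 65.1, 68.1 and 51.6 CPM in Foxp3-deficient libraries and 44.1, 54.5, 49.3 and 57.2 CPM in WT libraries. It rose against WT cells (0.49 ± 0.11, adjusted p = 0.00485) in every alternative tried, and its log2 fold change against Foxp3-deficient cells was 0.29 ± 0.11 (adjusted p = 0.0726). Dnajc21 and Cct5 lie on chromosome 15, as Rictor does, and start 3.74 and 24.9 Mb from the start of Rictor. Of all tested genes of that chromosome 15% were called higher against WT cells, beside 15.8% on other chromosomes. A share over a whole chromosome cannot show an effect limited to the stretch near Rictor, and such an effect was not tested.

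Dnaja2, a cytosolic class A partner of HSP70, had 322, 373, 326 and 368 CPM in double-deficient libraries. Dnaja2 had 242, 280.1, 282 and 323 CPM in Foxp3-deficient libraries and 267, 281, 274 and 317 CPM in WT libraries. It rose against Foxp3-deficient (0.30 ± 0.09, adjusted p = 0.0250) and WT cells (0.29 ± 0.09, adjusted p = 0.0259), with double-deficient 2 and Foxp3-deficient 5 at the edge of overlap. Its calls were lost without double-deficient 3 or 5 or Foxp3-deficient 1 or 4 (adjusted p 0.0549 to 0.0641) and without double-deficient 3 or 5 or WT 1, 3 or 4 (0.0647 to 0.0825), and with length and GC trends removed (0.330 and 0.0728). Dnajc24, needed for diphthamide synthesis on elongation factor 2, had 21.8, 23.6, 28.0 and 27.1 CPM in double-deficient libraries. Dnajc24 had 8.72, 21.2, 14.7 and 17.3 CPM in Foxp3-deficient libraries and 16.1, 16.6, 17.5 and 19.4 CPM in WT libraries. It rose against Foxp3-deficient cells (0.70 ± 0.20, adjusted p = 0.0193), a call lost without double-deficient 4 or 5 or Foxp3-deficient 4 (0.0507 to 0.0523). Dnajc8, a splicing-associated J-domain protein, had 205, 218, 213 and 218 CPM in double-deficient libraries. Dnajc8 had 130.2, 191, 171 and 186 CPM in Foxp3-deficient libraries and 198, 178, 193 and 187 CPM in WT libraries. It was higher than in Foxp3-deficient cells (0.34 ± 0.10, adjusted p = 0.0223), a call lost without double-deficient 5 (0.0505) and with the trends removed (0.246).

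Dnajc13 (RME-8), which acts in endosomal sorting, was the member called lower in both comparisons of double-deficient cells. It had 84.2, 71.2, 65.4 and 46.9 CPM in double-deficient libraries. Dnajc13 had 107, 82.1, 91.0 and 84.7 CPM in Foxp3-deficient libraries and 96.7, 87.4, 92.2 and 83.1 CPM in WT libraries. Double-deficient 5 was lowest. The log2 fold change was -0.45 ± 0.14 against Foxp3-deficient (adjusted p = 0.0287) and -0.42 ± 0.14 against WT cells (adjusted p = 0.0297). The calls were lost without double-deficient 3, 4 or 5 or Foxp3-deficient 1 or 4 (0.0524 to 0.0857), without double-deficient 4 or 5 or WT 1, 3 or 4 (0.0518 to 0.0825), and with length and GC trends removed (0.129 and 0.197). Dnajb14, a membrane J-domain protein of the endoplasmic reticulum, had 9.95, 7.16, 9.32 and 10.1 CPM in double-deficient libraries. Dnajb14 had 11.9, 7.24, 13.7 and 9.49 CPM in Foxp3-deficient libraries and 14.0, 15.6, 17.3 and 13.8 CPM in WT libraries. Every library of both mutant groups lay below every WT library. It fell in double-deficient against WT cells (-0.73 ± 0.19, adjusted p = 0.00856) and had -0.52 ± 0.19 in Foxp3-deficient against WT cells (adjusted p = 0.0857).

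Of the 50 tested members without a call in the main edgeR fit, 28 were J-domain genes. The synaptic vesicle and exocytosis factor Dnajc5 had 153 to 178 CPM in double-deficient, 171 to 207 CPM in Foxp3-deficient and 170.3 to 184 CPM in WT libraries, the HSP70 and HSP90 binder Dnajc7 226 to 273 CPM in double-deficient, 219 to 265 CPM in Foxp3-deficient and 215 to 258 CPM in WT libraries, the histone chaperone Dnajc9 119 to 123 CPM in double-deficient, 89.3 to 122 CPM in Foxp3-deficient and 113 to 128 CPM in WT libraries and the cristae protein Dnajc11 73.2 to 91.8 CPM in double-deficient, 77.2 to 91.7 CPM in Foxp3-deficient and 73.0 to 84.5 CPM in WT libraries. For Dnajc7 the 95% interval of the log2 fold change was -0.12 to 0.24 in double-deficient against WT cells and -0.12 to 0.23 in Foxp3-deficient against WT cells. Of the small heat shock proteins, Hspb6 alone was tested, with 2.39 to 3.83 CPM in double-deficient, 2.12 to 3.03 CPM in Foxp3-deficient and 2.15 to 4.65 CPM in WT libraries and no call. Hspb1, the heat-inducible small heat shock protein, had 54 reads over the 12 libraries, at most 0.985 CPM (WT 3), and Hspb9, Dnajb7 and the HSP70-like Hspa12b stayed at or under 0.404 CPM. Hspa12a was tested with 0.141 to 1.88 CPM in double-deficient, 1.03 to 3.50 CPM in Foxp3-deficient and 1.76 to 3.45 CPM in WT libraries and the misnamed Hspb11, an intraflagellar transport subunit, with 3.96 to 5.47 CPM in double-deficient, 2.22 to 4.79 CPM in Foxp3-deficient and 2.83 to 3.82 CPM in WT libraries. The main edgeR fit called neither. Limma-voom called Hspb11 in double-deficient against Foxp3-deficient cells and Hspa12a in double-deficient against WT cells. In these comparisons edgeR called Hspb11 without Foxp3-deficient 3, and Hspa12a with a replicate block or without double-deficient 2.

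Of the 74 members, 29 share exonic bases with another gene, 11 of them on the same strand. Among the called members named above these include Cct6a, Cct7, Cct8, Dnajc19, Dnajc24, Dnajc1, Dnajc13, Dnajb14 and Hspa1a. Whether the counting used strand is not given in the sources used here, so reads of these genes and their partners cannot be fully told apart. In all, 20 of the 70 tested members (28.6%) were called in at least 1 comparison, beside 45.4% of all genes.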

How the data were processed

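RNA was measured by sequencing in 12 libraries of sorted splenic Treg cells, 4 for each of 3 genotypes. Per the labels' protocols, sorted cells went into TRIzol, and the SMART-Seq v4 kit served for cDNA synthesis. The authors deposited raw counts of reads per gene, without normalization, in 1 table. Alignment was with STAR 2.5.1b to GRCm38 (mm10) and counting with HTSeq, per the submitters' processing notes. The HTSeq version, the strand setting and the Gencode release used are not given here. The 3 HTSeq summary lines of the table were kept out of library sizes and tests; the reads assigned to genes were 60.5% ± 0.738 of the total in double-deficient, 62.8% ± 1.89 in Foxp3-deficient and 62.3% ± 1.29 in WT libraries (SD, n = 4 each). No pair of libraries was a copy (lowest chi-square per gene 6.98).

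Samples were grouped by the genotype in their labels. All 12 libraries entered 1 fit of edgeR 4.0.16 (R 4.3.3; filterByExpr, TMM, robust quasi-likelihood test), with the 3 comparisons as contrasts and Benjamini-Hochberg adjustment over all 13196 genes tested. CPM used TMM-scaled library sizes, and within-group SDs were taken on log2(CPM + 0.5). Lengths, GC content and positions of genes were read from GENCODE M21 (GRCm38), which matched 97.54% of 25189 genes (24116 by symbol, 453 by synonym), and promoters from RefSeq on GRCm38.p6. The steps were tested on simulated data. The alternatives were scaling by upper quartile or relative log expression, no filter, a filter of 1 CPM in 4 libraries with a mean of 5, DESeq2 1.42.0, limma-voom (limma 3.58.1), fits of only the groups compared, length and GC trends removed, a replicate block, and leaving out libraries.

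The text names every called member, the CCT subunits, the stress-induced cytosolic, endoplasmic reticulum and mitochondrial members, and called genes of 6 lists; other members, such as Hspa14, Hspa4 and Dnajc7, were chosen after their values were seen. Members and lists were chosen with earlier results of these data known. Counts of 1 library carry counting error only, and without molecular identifiers reads are not independent molecules.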

Additional observations from a re-analysis of the deposited data

Results flagged for a closer look

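In 6 of 132 sets of 4 values (a named member in 1 group), the highest or lowest library stood farther from its nearest neighbour than Dixon's 95% limit allows; chance alone flags about 1 in 20 such sets. In Foxp3-deficient libraries, Hspa13 was highest in replicate 5 (31.9 CPM, the nearest at 22.2 CPM), Tcp1 was highest in replicate 5 (225 CPM, the nearest at 202 CPM), and Hspa8 was lowest in replicate 1 (148 CPM, the nearest at 295 CPM). In double-deficient libraries, Tcp1 was highest in replicate 2 (256 CPM, the nearest at 233 CPM) and Hspbp1 was lowest in replicate 4 (96.1 CPM, the nearest at 102 CPM). In WT libraries, Hspa2 was lowest in replicate 1 (3.80 CPM, the nearest at 6.90 CPM).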

How the results depend on the processing

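Of the single-gene results under the alternatives, 3751 kept their side of the threshold, 312 lost a call, 43 gained one, and 0 of those with a call changed sign. Direction was not compared for results without a call in either fit, so it may have changed among the 3751. In double-deficient against Foxp3-deficient cells, where 11 members were higher and 1 lower, the count of higher members was 6 with length and GC trends removed and 5 to 14 without single libraries. The count of lower members there was 2 with DESeq2, 0 with the trends removed, 0 with only these groups fitted, 0 without Foxp3-deficient 1 and 3, and 0 to 2 without single libraries. In double-deficient against WT cells, where 13 were higher and 3 lower, the higher ones numbered 5 to 18 without single libraries, and the lower ones 5 with limma-voom, 5 with only these groups fitted, 5 without Foxp3-deficient 1 and 3, and 2 to 4 without single libraries. In Foxp3-deficient against WT cells, where no member was called, 1 was higher with the trends removed (Dnajc3), 3 were lower with DESeq2, 1 with no filter (Hspb1), 1 with upper quartile scaling (Dnajc1) and 0 to 2 without single libraries. Over all genes, 3585 were called in double-deficient against Foxp3-deficient cells, beside 2382 with only these groups fitted, 2058 with the trends removed and a replicate block, and 2153 to 4430 without single libraries.

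Replicate numbers were not taken to pair the samples, since not every pair passed 0.1. This rule cannot settle whether same-numbered Foxp3-deficient and WT libraries came from 1 animal. Over all genes the correlation of deviations from the group means was 0.157, 0.102, 0.0289 and 0.203 for the same-numbered Foxp3-deficient and WT libraries and between -0.0524 and 0.0622 for pairs with double-deficient libraries, and 5 of 12 libraries correlated best with their own number. Over the members alone the Foxp3-deficient and WT pairs gave 0.934, 0.689, -0.450 and 0.688. Members with wide deviations weigh most in these values. On the log2(CPM + 0.5) scale the SDs of Hspa1b and Hspa1a were 3.54 and 3.20 in Foxp3-deficient and 3.12 and 2.81 in WT libraries. The member median was 0.19 in both groups. Correlations without Hspa1a and Hspa1b were not computed. With the replicate block, 6 members were higher and 2 lower in double-deficient against Foxp3-deficient cells, and 11 higher and 4 lower against WT cells. With the block and the trends removed together the counts were 2 and 1, and 11 and 1. For these changes the cause was not tested. Depth limits the members with few reads, such as Hspb1, Hspb9, Dnajb7 and Hspa12b.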
